A study of Mus musculus with 12 samples.

Results

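The 10 genes described here mark the chondrocyte and osteoblast lineages, the cartilage-forming and bone-forming cells. They are the chondrocyte transcription factors Sox5, Sox6 and Sox9, the cartilage matrix genes Acan and Comp, the osteoblast transcription factors Runx2 and Sp7, and the mineralization genes Alpl, Spp1 and Ibsp. They were chosen by gene symbol from the 53341 genes of the deposited table, and all 10 had a value. The 12 libraries hold poly(A) RNA of cultured fibroblast-like synoviocytes of the mouse, the fibroblasts of the joint lining. SoxC_KO_TNF cells had received an adenovirus with Cre recombinase (Ade5CMV-Cre) and then 10 ng/mL recombinant human TNF for 16 h, and SoxC_KO cells had received the Cre virus without TNF. Control_TNF cells had received an adenovirus with eGFP (Ade5CMV-eGFP) and TNF, and control cells the eGFP virus without TNF. Each group had 3 libraries. Cells of all 4 groups came from mice described as SoxC, so the controls differ from the knockouts in the virus and not in the mouse line. The CMV promoter of the Cre virus is active in many cell types. The sources used here give neither the age of the mice nor whether replicates were separate animals or cultures. The p-values therefore reflect only how much these libraries vary, which may be technical variation.

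In cartilage, SOX9 with SOX5 and SOX6 switches on the genes of the cartilage matrix, such as Acan, which encodes the large proteoglycan aggrecan. In bone, RUNX2 starts the osteoblast program and SP7 (osterix) acts after it. The tissue-nonspecific alkaline phosphatase encoded by Alpl removes pyrophosphate, an inhibitor of mineral deposition, while osteopontin (Spp1) and bone sialoprotein (Ibsp) are acidic glycoproteins of the mineralized matrix. Synoviocytes arise from the same joint mesenchyme as articular chondrocytes, and TNF, the inflammatory cytokine given here, is known to hold back osteoblast and chondrocyte differentiation.

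The 250 bases before the start of Spp1 and of Alpl are shown because these were the members whose 6 TNF libraries did not overlap the 6 libraries without TNF, in opposite directions. They were taken from RefSeq (GRCm38.p6) and are written 5′ to 3′ on the gene's own strand. Spp1 lies at chr5:104434861-104435110, plus strand, and Alpl at chr4:137796385-137796634, minus strand. Capitals mark matches to 4 motifs searched on both strands, which were ACCACA for RUNX factors, ACAAAG and AACAAT for SOX factors, and GGG, any 5 bases and CC for NF-kB.
Spp1: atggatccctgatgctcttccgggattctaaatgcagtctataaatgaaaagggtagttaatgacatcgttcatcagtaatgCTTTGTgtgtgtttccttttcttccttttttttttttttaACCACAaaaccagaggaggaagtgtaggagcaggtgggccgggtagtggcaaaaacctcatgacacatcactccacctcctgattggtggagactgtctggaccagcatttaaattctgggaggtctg
Alpl: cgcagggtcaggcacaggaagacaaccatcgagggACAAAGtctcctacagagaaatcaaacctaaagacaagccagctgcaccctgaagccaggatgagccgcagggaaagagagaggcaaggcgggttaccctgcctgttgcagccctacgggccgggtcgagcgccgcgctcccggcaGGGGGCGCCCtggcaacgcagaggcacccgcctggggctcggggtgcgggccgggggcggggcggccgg

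The Spp1 stretch held 1 match to ACCACA, whose first base was at -128 from the start, and 1 to ACAAAG on the other strand at -168. The Alpl stretch held 1 match to ACAAAG at -215 and 1 to the NF-kB motif at -69, which reads as a match on both strands and overlaps no other motif. Neither stretch held AACAAT. Both stretches precede the RefSeq start nearest to the annotated start of the gene. Another RefSeq window of each gene, chr5:104435942-104436241 for Spp1 and chr4:137766426-137766725 for Alpl, held matches to ACAAAG alone among the 4 motifs. Such letters are common. Among 32851 mouse RefSeq windows of 250 bases before to 50 after a start, 16.8% held ACCACA, 18.7% ACAAAG, 10.7% AACAAT and 50.8% the NF-kB motif, so these matches are a description of the sequence only. GC content was 43.6% in the Spp1 stretch and 68.4% in the Alpl stretch.

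Some facts of the whole series bear on every value. Sox4, the most abundant of the targeted SoxC genes (Sox4, Sox11 and Sox12), was at 601 to 1086 normalized counts in SoxC_KO_TNF libraries and 548 to 1433 in SoxC_KO libraries, against 1625 to 3646 in control_TNF and 1857 to 4238 in control libraries. Sox11 lay at 26.8 to 175 in the 6 knockout libraries, against 138 to 272 in the 6 controls. Sox12 lay at 86.5 to 259 in knockout libraries, against 162 to 352 in controls. RNA of these genes was therefore still present in the knockout groups. Normalized totals were 19.6 to 23.1 M per library, from an estimated 8.14 to 13.7 M read pairs. All 10 markers of synovial fibroblasts had at least 10 normalized counts in some library. So did all listed markers of macrophages and osteoclasts (8), endothelium (5), skeletal muscle (6) and liver (6), so this criterion does not identify the cells. Of 4 adipocyte markers, 3 stayed under 10 in every library. The chondrocyte collagen gene Col2a1 averaged 144 normalized counts and Col1a1, a marker of fibroblasts, 143407. The 4 libraries numbered 3, 1 from each group, were highest on the first principal component (51.6% of the variance), at 28.5 to 119.7. Control_TNF replicate 1 lay between them and the rest, at 6.13 against -24.9 or less. In the libraries numbered 3 the summed macrophage and osteoclast markers (8 genes, none listed at 0 throughout) were 2909 to 3521 normalized counts, against 1140 to 1614 in the other 8 libraries. Liver transcripts (6 genes) summed to 3708 in SoxC_KO_TNF replicate 1 and 576 in control_TNF replicate 2, against 69.8 or less in the others. Skeletal muscle markers (6 genes) summed to 1163 in SoxC_KO_TNF replicate 1, 1124 in SoxC_KO replicate 1 and 1276 in SoxC_KO replicate 3, against 354 to 902 in the others. Of these markers the myosin gene Myh4 was at 277 in SoxC_KO_TNF replicate 1 and 188 in SoxC_KO replicate 1, against 13.3 or less in the others, while the actin gene Acta1 was highest in SoxC_KO replicate 3, at 1146. Acta1 passed as lower with TNF over both genotypes with replicate number in the model (log2 change -0.94, limma adjusted p = 0.00815), 1 of 4 muscle markers tested, and the part of muscle RNA in the members' results was not tested beyond leaving out the 2 libraries high in Myh4. In bulk RNA, fewer cells of a type and less RNA per cell cannot be told apart.

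On the scale of normalized counts per kb of exon, which allows genes of different length to be compared, the mean level over the 12 libraries was 16067 for Spp1, 769 for Comp, 336 for Alpl, 80.3 for Runx2, 55.3 for Sox9, 9.47 for Sp7, 4.96 for Sox5, 4.28 for Sox6, 1.31 for Ibsp and 0.268 for Acan. Spp1 ranked 35th per kb among 18112 genes with an exon length. Comp stood at the 91.1 percentile of the same genes, Alpl at 80.7, Runx2 at 52.7, Sox9 at 45.5, Sp7 at 17.4, Sox5 at 9.93 and Sox6 at 8.33. Spp1 was above Comp, Alpl above Runx2 and Sox9 above Sp7 in every library, with ranges that did not touch. Comp was above Alpl in 12 of 12 libraries and Runx2 above Sox9 in 11 of 12, although their ranges over all libraries overlapped. Sp7 was above Sox5 in 8 of 12 libraries and Sox5 above Sox6 in 6 of 12, and the ranges of these neighbours overlapped. The gap between Sp7 and Sox5 differed by treatment. Without TNF, Sp7 averaged 15.2 per kb in SoxC_KO and 12.3 in control libraries, against 3.23 and 3.96 for Sox5. With TNF, Sp7 averaged 4.63 in SoxC_KO_TNF and 5.75 in control_TNF libraries, against 7.23 and 5.43 for Sox5.

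**Figure D1:**
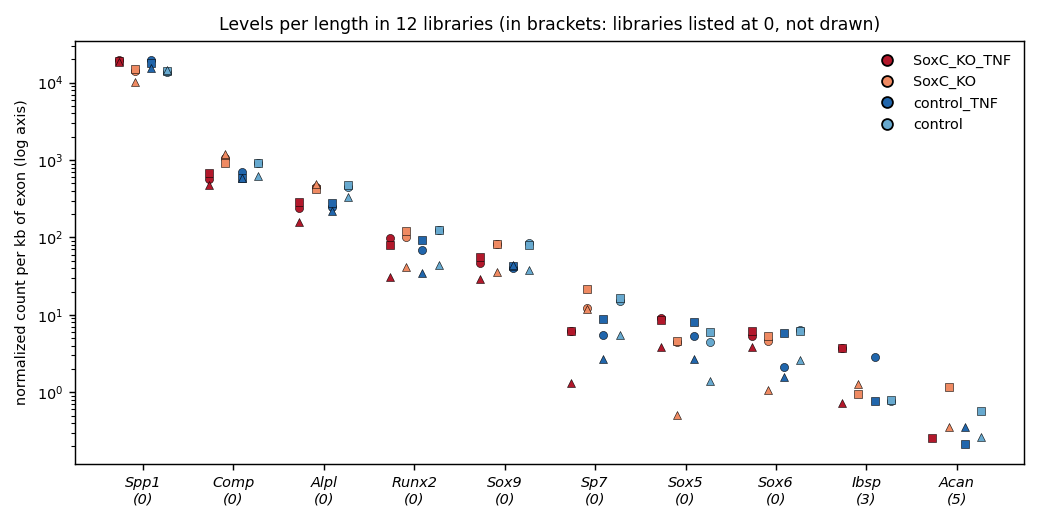
Level of each member in each of the 12 libraries, in normalized counts per kb of exon on a log axis, with genes ordered by their mean. Colours stand for the 4 groups, circles, squares and triangles for replicates 1, 2 and 3, and the numbers in brackets give the libraries listed at 0. Spp1 averaged 16067 per kb and Acan 0.268 per kb.

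With replicate number in the model, Runx2, Sp7, Alpl and Comp fell and Spp1 and Sox5 rose with TNF, and no member passed the test between knockout and control cells. TNF was compared with no TNF in knockout cells, in control cells and as the average of both, by limma on log2(normalized count + 1) with Benjamini-Hochberg adjustment over 18139 genes. The model has 1 mean per group, and it was also fitted with the replicate number as a block. Deviations from the group means correlated to an unequal degree between same-numbered libraries (r from 0.0537 to 0.715). Differently numbered libraries were not compared in this way, so the block is an assumption. Without the block 1 of the 8 members tested, Alpl, passed an adjusted p of 0.05 for the average TNF effect (1.17% of all genes passed). With the block 6 of 8 passed, 4 lower and 2 higher, where 5.19% of all genes passed, 2.18% lower and 3.01% higher. The median log2 change of the 8 members was -0.51, with 6 below 0, and that of all genes was -0.00. Acan and Ibsp had no library at 10 normalized counts and were not tested.

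**Figure D2:**
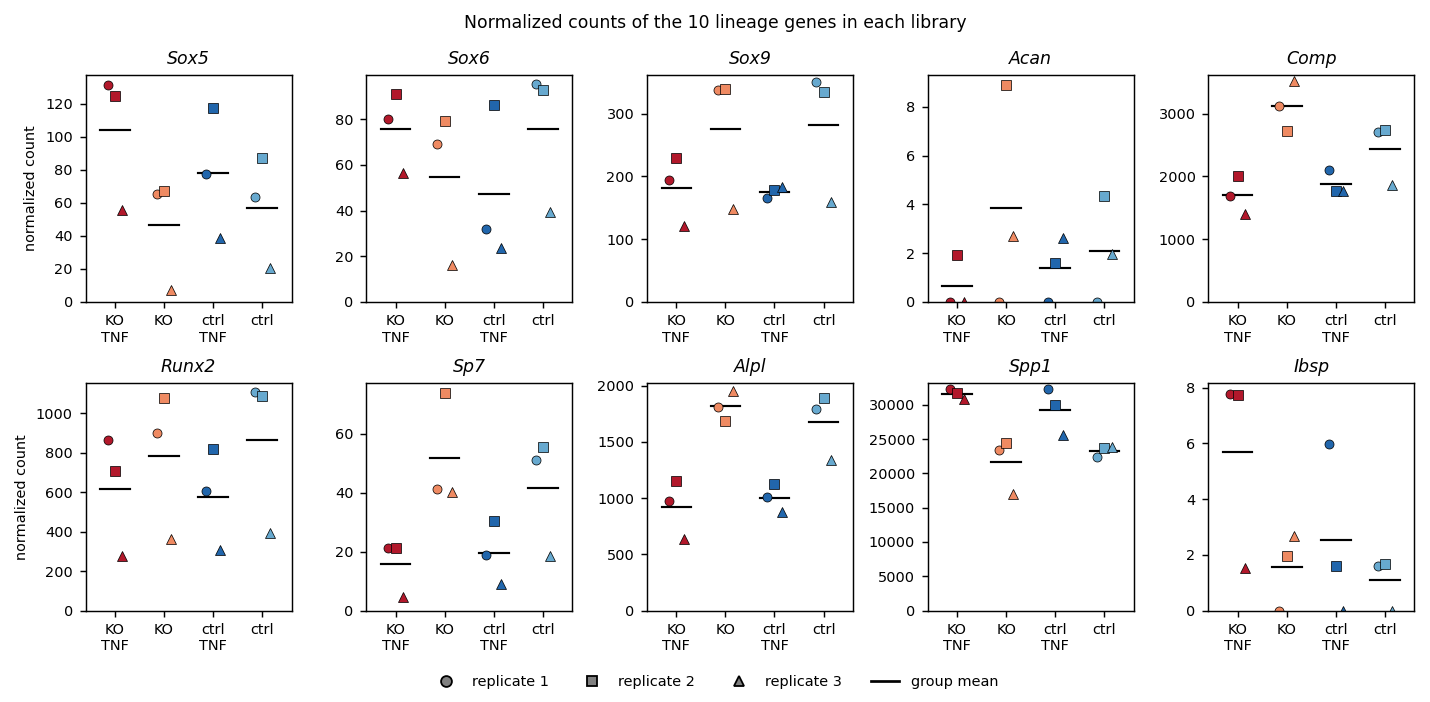
Normalized count of each of the 10 members in each library, 1 panel per gene, with the groups SoxC_KO_TNF, SoxC_KO, control_TNF and control from left to right. Marker shapes give the replicate number and bars the group mean of 3 libraries. Alpl was at 637 to 1149.9 in TNF libraries and 1344 to 1956 without TNF, and replicate 3 was lowest in all 4 groups for Sox5, Sox6, Runx2 and Sp7.

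Alpl (chromosome 4, 137741733 to 137796384, minus strand, mm10) was at 976, 1149.9 and 637 normalized counts in SoxC_KO_TNF libraries 1 to 3, against 1813, 1684 and 1956 in SoxC_KO libraries. In control_TNF libraries it was at 1007, 1128 and 875, against 1791, 1894 and 1344 in control libraries. Every TNF library lay below every library without TNF, a pattern that 0.943% of all genes tested had. The means were 921 ± 261 in SoxC_KO_TNF, 1818 ± 136 in SoxC_KO, 1003 ± 127 in control_TNF and 1676 ± 292 in control (SD, n = 3 each). Alpl, the phosphatase gene, thus stood at 50.7% of the level without TNF in knockout cells and 59.9% in control cells. It fell by 0.88 on the log2 scale as the average of both genotypes (limma, SE 0.17, Benjamini-Hochberg adjusted p = 0.0300). With replicate number in the model the adjusted p was 0.00108 (SE 0.12), and with any 1 of the 12 libraries left out of that model, a check added after the data were seen, Alpl still passed (adjusted p 0.000679 to 0.00721). Without the block it passed in 4 of these 12 fits, those without SoxC_KO_TNF replicate 2 or 3, SoxC_KO replicate 3 or control replicate 3. The call without the block was also lost without the libraries with liver transcripts (adjusted p = 0.105, log2 change -0.95) and without the 2 high in Myh4 (adjusted p = 0.169, log2 change -0.91).

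Sp7 (chromosome 15, 102356609 to 102366325, minus strand), the factor that osteoblast precursors need to mature, was low. It had 21.4, 21.3 and 4.53 normalized counts in SoxC_KO_TNF libraries, against 41.3, 73.8 and 40.2 in SoxC_KO libraries. In control_TNF libraries it had 18.9, 30.5 and 9.20, against 51.0, 55.6 and 18.6 in control libraries. It was lower with TNF in 6 of 6 same-numbered pairs (5.33% of all genes were), and in knockout cells the groups did not overlap (6.4% of all genes tested were lower in this way), while in control cells control replicate 3 fell within the TNF range. The change was the largest of the members, with a log2 change of -1.46 (SE 0.45, limma adjusted p = 0.233) without the block. With it the change was the same, with SE 0.25 and adjusted p = 0.00484. With the block it passed whichever library was left out (adjusted p 0.00486 to 0.0260). In knockout cells Sp7 fell by 1.85 (block, SE 0.36, limma adjusted p = 0.0175), and in control cells the log2 change was -1.06 (block, adjusted p = 0.234).

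Runx2 (chromosome 17, 44495987 to 44814797, minus strand), the factor that starts the osteoblast program, was at 866, 708 and 275 normalized counts in SoxC_KO_TNF libraries, against 901, 1078 and 364 in SoxC_KO libraries. Control_TNF libraries held 604, 819 and 309, against 1110.1, 1089 and 393 in control libraries. In both genotypes the TNF libraries overlapped those without TNF because the library numbered 3 was the lowest of each group. Each of the 6 same-numbered pairs was lower with TNF, by 0.06 to 0.88 on the log2 scale (5.33% of all genes were lower in all 6). The average log2 change of -0.45 did not pass without the block (SE 0.42), and Runx2 fell by the same amount with the block (SE 0.11, limma adjusted p = 0.0407). That call held in 2 of the 12 fits with 1 library left out, those without SoxC_KO_TNF replicate 1 or SoxC_KO replicate 3 (adjusted p 0.0283 to 0.151 over the 12). An opposite-strand gene, Runx2os1, shares 519 exon bases with Runx2 and had a mean of 40.9 normalized counts against 710 for Runx2. The sources used here do not say whether counting used strand, so reads of such overlapping pairs cannot be told apart.

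Spp1 (chromosome 5, 104435118 to 104441050, plus strand), which encodes osteopontin, was the most abundant member and moved the other way. It was at 32373, 31661 and 30913 normalized counts in SoxC_KO_TNF libraries, against 23465, 24502 and 17054 in SoxC_KO libraries. Control_TNF libraries held 32309.8, 29930.3 and 25597, against 22446, 23656 and 23834 in control libraries. Every TNF library lay above every library without TNF, which 1.48% of all genes tested did. Mean levels were 1.46 times those without TNF in knockout cells and 1.26 times in control cells. The average log2 change was 0.44 (SE 0.12, limma adjusted p = 0.140) and passed with the block (SE 0.10, adjusted p = 0.0213), in 6 of 12 fits with 1 library left out. It was lost without replicate 1 of SoxC_KO_TNF, SoxC_KO, control_TNF or control, without control_TNF replicate 3 and without control replicate 2 (adjusted p 0.0219 to 0.0946 over the 12). Macrophages and osteoclasts also make osteopontin. Of their 8 markers, 6 passed the filter on low values and none passed the test for TNF, and their sum was 1174 to 3272 normalized counts in TNF libraries, against 1140 to 3521 without TNF. The libraries numbered 3, with the highest sums of these markers, held 88.4% of the Spp1 level of the others. The part of macrophages and osteoclasts in the Spp1 level and in its change with TNF was not tested. Gm42793, a gene on the same strand as Spp1, shares 309 exon bases with it and averaged 573 normalized counts.

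Ibsp (chromosome 5, 104299171 to 104311469, plus strand), bone sialoprotein, is a neighbour of Spp1 on the chromosome and was at the limit of detection. It had 7.77, 7.74 and 1.51 normalized counts in SoxC_KO_TNF libraries, against 0, 1.97 and 2.68 in SoxC_KO libraries. Control_TNF libraries had 5.97, 1.58 and 0, against 1.59, 1.66 and 0 in control libraries. The 3 highest values were all in TNF libraries, but every group reached down to 2 or less, and a value listed as 0 can stand for up to 1 normalized count. Each of these values corresponds to a few read pairs, so a difference was not detectable at this depth.

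Comp (chromosome 8, 70373558 to 70382066, plus strand), a pentameric glycoprotein of cartilage, tendon and synovium, was the better expressed of the cartilage matrix members. It was at 1683, 2009.7 and 1401 normalized counts in SoxC_KO_TNF libraries, against 3118, 2719.9 and 3515 in SoxC_KO libraries. Counts were 2105, 1762 and 1758 in control_TNF libraries, against 2707, 2733 and 1857 in control libraries. In knockout cells the TNF libraries all lay below the others (6.4% of all genes tested were lower in this way). In control cells control replicate 3 fell among the TNF libraries. The average log2 change was -0.62 (SE 0.15, limma adjusted p = 0.0901), and Comp fell with the block (SE 0.12, adjusted p = 0.0119). With the block it passed in 10 of 12 fits with 1 library left out, all but those without control replicate 1 or 2 (adjusted p up to 0.0573). In knockout cells Comp fell by 0.88 with the block (SE 0.18, limma adjusted p = 0.0200), and in control cells the log2 change was -0.36 (block, SE 0.18, adjusted p = 0.441). The difference between these changes was -0.53 (block, SE 0.25, adjusted p = 0.297), so it did not pass the test.

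Acan (chromosome 7, 79053483 to 79115099, plus strand), the defining proteoglycan of cartilage, was close to absent. It had 0, 1.94 and 0 normalized counts in SoxC_KO_TNF libraries, against 0, 8.88 and 2.68 in SoxC_KO libraries. Counts were 0, 1.58 and 2.64 in control_TNF libraries, against 0, 4.33 and 1.96 in control libraries. It was listed at 0 in 5 of 12 libraries, the first of every group among them. No difference was detectable at this depth.

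Sox9 (chromosome 11, 112782224 to 112787760, plus strand), the factor that commits cells to cartilage, was at 194, 229 and 121 normalized counts in SoxC_KO_TNF libraries, against 338, 339 and 149 in SoxC_KO libraries. Control_TNF libraries had 165, 178 and 184, against 351, 334 and 159 in control libraries. It was lower with TNF in 5 of 6 same-numbered pairs, the pair of control libraries numbered 3 being the exception. The average log2 change of -0.57 did not pass, either without the block (SE 0.28, limma adjusted p = 0.677) or with it (SE 0.17, adjusted p = 0.0886). Without the 4 libraries numbered 3 the change was -0.84 (SE 0.12, adjusted p = 0.00404).

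Sox5 (chromosome 6, 143828425 to 144781977, minus strand), which encodes a partner of SOX9 that binds DNA without an activation domain of its own, was at 132, 125 and 55.5 normalized counts in SoxC_KO_TNF libraries, against 65.1, 66.9 and 7.38 in SoxC_KO libraries. Counts were 77.6, 118 and 39.0 in control_TNF libraries, against 63.4, 87.2 and 20.4 in control libraries. It was higher with TNF in 6 of 6 same-numbered pairs (4.91% of all genes were), although the groups overlapped. The average log2 change was 1.04 (SE 0.57, limma adjusted p = 0.787), and Sox5 rose with the block (SE 0.25, adjusted p = 0.0305). In knockout cells it rose by 1.55 with the block (SE 0.35, limma adjusted p = 0.0374), and in control cells the log2 change was 0.54 (block, SE 0.35, adjusted p = 0.545). The size in knockout cells leaned on 1 library, since without the block it was 1.55, and 0.55 without SoxC_KO replicate 3, in which Sox5 was at 7.38. The average call held in 5 of 12 fits with 1 library left out and was lost without SoxC_KO_TNF replicate 1 or 3, control_TNF replicate 2 or 3, or any control library (adjusted p 0.0198 to 0.103). In knockout cells it held in 3 of 12, those without SoxC_KO_TNF replicate 2, SoxC_KO replicate 1 or control_TNF replicate 1.

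Sox6 (chromosome 7, 115470872 to 116038796, minus strand), the close relative of Sox5, was at 80.3, 91.0 and 56.5 normalized counts in SoxC_KO_TNF libraries, against 69.3, 79.2 and 16.1 in SoxC_KO libraries. In control_TNF libraries it was at 31.8, 86.3 and 23.7, against 95.6, 93.0 and 39.2 in control libraries. It was higher with TNF in 3 of 3 knockout pairs and lower in 3 of 3 control pairs (1.94% of all genes were, and 2.05% had the reverse pattern). The log2 change was 0.72 in knockout cells and -0.79 in control cells, and neither passed with the block (SE 0.35 each, limma adjusted p = 0.256 and 0.388). The difference between them was 1.51 (block, SE 0.49, unadjusted p = 0.00983, limma adjusted p = 0.284), and no gene of the 18139 passed for this difference in either model. Without the block, the log2 change of Sox6 in knockout cells was 0.01 when SoxC_KO replicate 3 was left out, and the difference between the genotypes was then 0.80. With the block, the lowest change in knockout cells with 1 library left out was 0.33.

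**Figure D3:**
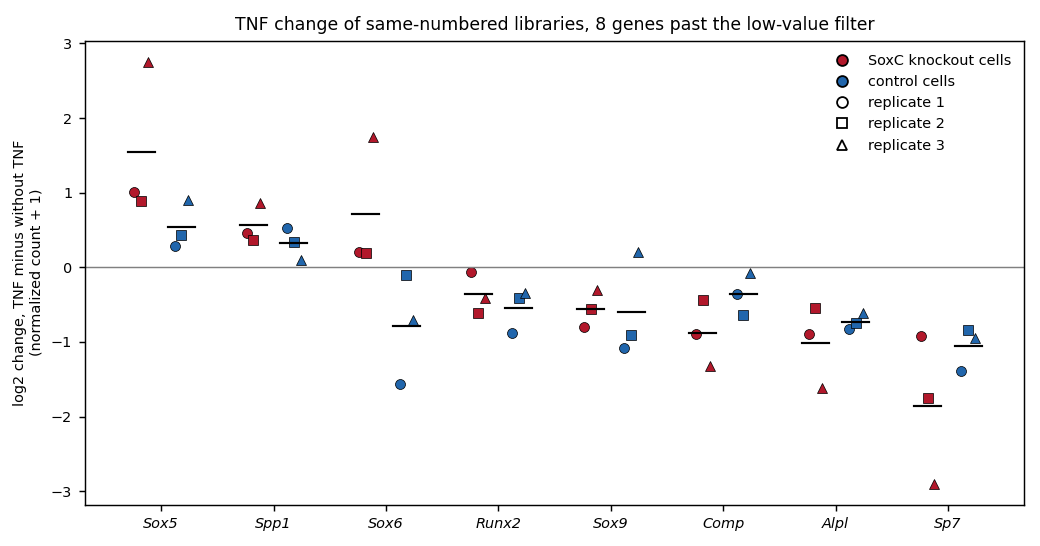
Log2 change of each same-numbered pair of libraries, TNF minus without TNF, for the 8 members tested, with knockout pairs in red left of control pairs in blue. Shapes give the replicate number and bars the mean of 3 pairs. All 6 pairs lie above 0 for Sox5 and Spp1 and below 0 for Runx2, Comp, Alpl and Sp7, and Sox6 pairs lie above 0 in knockout cells and below 0 in control cells.

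Taken by genotype, the TNF comparison in knockout cells called 0 members without the block (0.292% of all genes passed; 4 members had an unadjusted p under 0.05, as did 7.38% of all genes) and 4 with it (2.78% of all genes passed, 1.78% higher and 1% lower), Sox5 higher and Comp, Sp7 and Alpl lower. With 1 library left out at a time Alpl passed there in every fit, Sp7 in 9 of 12 fits and Comp in 8 of 12. Sp7 was lost without SoxC_KO_TNF replicate 3 or SoxC_KO replicate 2 or 3, and Comp without replicate 1 or 3 of SoxC_KO_TNF or of SoxC_KO. In control cells 0 members passed in limma without the block (0.32% of all genes; 1 member at an unadjusted p under 0.05, against 4.21% of all genes) and 0 with it (1.71%; 6 members at an unadjusted p under 0.05, against 12.2% of all genes). Alpl came nearest there, with a log2 change of -0.73 (block, SE 0.18, limma adjusted p = 0.0660). No member passed for the difference between the genotypes in TNF response, so a call in knockout cells and none in control cells does not show that the responses differ. With the libraries holding liver transcripts left out and the block kept, 545 genes passed for the average TNF effect. The low-value filter was applied anew, so no share is given. Among them were 2 members, Sp7 (limma adjusted p = 0.0136) and Alpl (adjusted p = 0.0121). Runx2 (adjusted p = 0.0511), Spp1 (0.0901), Comp (0.0911) and Sox5 (0.124) no longer passed. In knockout cells Sp7 then passed (limma adjusted p = 0.0496), while Alpl (0.0716), Comp (0.147) and Sox5 (0.191) did not.

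The knockout itself was compared with control cells in 3 ways, and none of the 8 members passed in any. With TNF, SoxC_KO_TNF against control_TNF gave 0 members called with and without the block (0% of all genes), and 1 member, Sox6, had an unadjusted p under 0.05 with the block, as did 6.40% of all genes. Without TNF, SoxC_KO against control gave 0 members in both models (0% of all genes), and none at an unadjusted p under 0.05. For the average over both treatments 0 members passed in limma without the block (0% of all genes) and 0 with it (0.00551%), again none at an unadjusted p under 0.05. The intervals show what these data could miss. The 95% interval of the average knockout change with the block was -0.28 to 0.26 for Alpl, -0.22 to 0.21 for Spp1, -0.16 to 0.38 for Comp and -0.30 to 0.20 for Runx2. It was wider for the others, at -0.40 to 0.36 for Sox9, -0.60 to 0.48 for Sox5, -0.42 to 0.65 for Sox6 and -0.56 to 0.55 for Sp7, so changes of that size could not be seen.

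**Figure D4:**
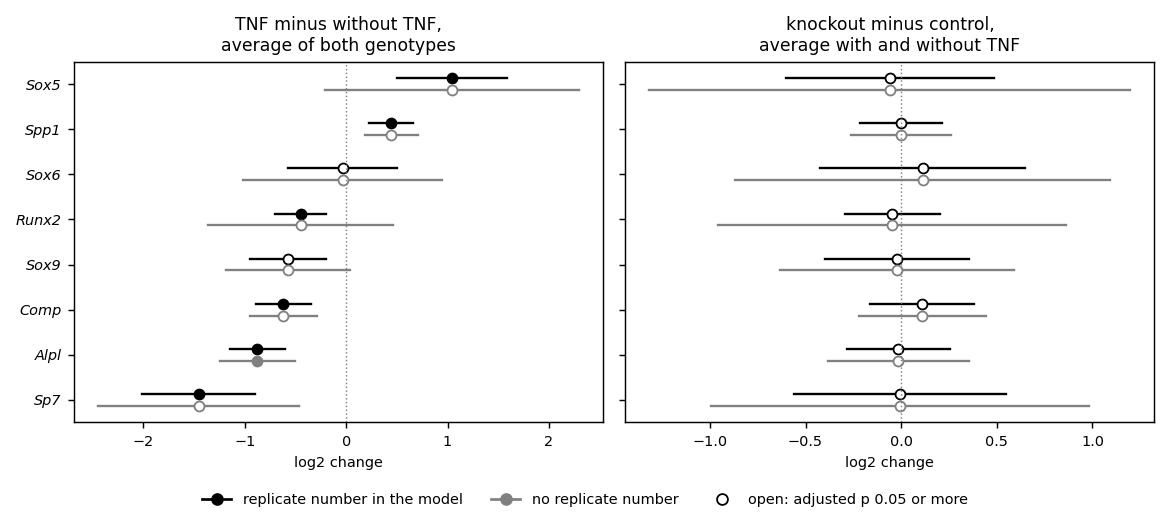
Log2 changes of the 8 members tested with 95% intervals, for TNF minus without TNF averaged over both genotypes (left) and knockout minus control averaged over both treatments (right). Black stands for the model with replicate number, grey for the model without it, and filled circles for an adjusted p under 0.05. On the left 6 black circles and 1 grey circle (Alpl) are filled, and on the right none.

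Several members also differed between the libraries numbered 3 and the other 8. Libraries numbered 3 held 33.3% of the mean of the other 8 for Sox5, 37.4% for Runx2, 43.3% for Sox6, 46.3% for Sp7 and 57.5% for Sox9. Sox5, Sox6, Runx2 and Sp7 were lowest in replicate 3 of all 4 groups, which 24.7% of all genes were. For Alpl, Spp1 and Comp the libraries numbered 3 held 84.1%, 88.4% and 90.6%. The difference in macrophage and osteoclast markers given above runs with this split, and its part in the members' levels was not tested. The summed fibroblast markers were 204897 to 388261 normalized counts in the libraries numbered 3, against 398404 to 560435 in the others. Most of this sum is Col1a1, Col1a2 and Col3a1, and single markers did not all follow it. Thy1 was at 22495 in SoxC_KO, 15359 in control_TNF and 17542 in control replicate 3, against 11057.5 to 13901 in the other 8 libraries. In SoxC_KO_TNF replicate 3 it was at 11005. Without the libraries numbered 3 and without the block, 5 of the 8 members passed for the average TNF effect. They were Sox9, Comp, Sp7, Alpl and Spp1, and 668 of all genes passed in that fit. The low-value filter was applied anew there, so no share of all genes is given. With all 12 libraries in the same model, 212 genes (1.17%) and 1 member passed.

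The profiles of the members were also compared with each other and with other genes. With the mean of each replicate number removed, Pearson's r over the 12 libraries was 0.96 between Alpl and Sp7, 0.93 between Alpl and Comp and 0.76 between Alpl and Runx2. It was -0.97 between Alpl and Spp1 and -0.91 between Sox5 and Comp. The 12 libraries belong to 4 groups whose means were not removed, so these values include the differences between treatments. Estimated depth also differed between libraries, and no test is given. Other genes with the most similar profile, taken as the 3 highest r over the 12 libraries among genes with a mean of at least 50 normalized counts, were Adra2a, Slc24a3 and Tgfbi for Alpl (r = 0.97 to 0.98) and Tnfaip8, Tfpi2 and Il13ra2 for Spp1 (r = 0.97). For Comp they were Mmp17, Nptx2 and Efnb1 (r = 0.96 to 0.98). For Sox9 they were Aldh1a3, Ror1 and Pdgfc (r = 0.92 to 0.94). For the genes low in the libraries numbered 3 they were Palld, Cdh2 and Cblb for Runx2 (r = 0.99), Ints13, Flrt3 and Nab1 for Sox5 (r = 0.98), and Galnt4, Trim2 and Wdr47 for Sox6 (r = 0.98 to 0.99).

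Other genes of the same programs were counted for the average TNF effect with the block, where 2.18% of all genes passed as lower and 3.01% as higher. Calls of these listed genes were not checked with libraries left out. Of 10 tested genes of the cartilage matrix, 3 fell and none rose, and the median log2 change was -0.44. Those that fell were Cilp, an intermediate-layer cartilage protein (-0.71, limma adjusted p = 0.00590), Col10a1, the collagen of hypertrophic chondrocytes (-0.59, adjusted p = 0.00621), and Col11a1, a chain of the thin cartilage fibrils (-0.55, adjusted p = 0.00684). Without the block Col10a1 alone passed. Of 10 regulators of chondrocytes none passed in either model (median 0.08), and the most abundant, Sik3, had a log2 change of -0.01.

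Of 12 tested genes of osteoblast matrix and mineral handling, 2 fell and none rose (median -0.15). They were Smpd3, a sphingomyelinase needed for bone mineralization (-0.91, limma adjusted p = 0.00275), which also passed without the block, and Col1a1, the main collagen of bone and of fibroblasts (-0.56, adjusted p = 0.0377). Of 15 regulators of osteoblasts 3 fell and 1 rose (median -0.24). Dlx5, a homeobox factor upstream of Sp7, was low, at 3.95 to 39.6 normalized counts per library, and fell by 1.11 (limma adjusted p = 0.0292). Fgfr2 fell by 0.54 (limma adjusted p = 0.0345) and Hdac4, a deacetylase that binds RUNX2, fell by 0.47 (adjusted p = 0.0410). Twist2, whose protein restrains RUNX2, rose by 1.43 (limma adjusted p = 0.000189) and was the only one of the 15 to pass without the block. Of 7 genes for receptor chains that bind osteopontin 2 rose, Itgb3 by 1.18 (limma adjusted p = 3.08e-05, also without the block) and Itgav by 0.61 (adjusted p = 0.0351), with a median of 0.37. Of 11 tested paralogs of the members none passed (median -0.31), and the most abundant, Thbs1, a relative of Comp, had a log2 change of -0.06. Among the 10 synovial fibroblast markers Pdpn and Dcn rose and Col3a1, Prg4, Vim and Col1a1 fell, so the expression of fibroblast genes changed as well.

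**Figure D5:**
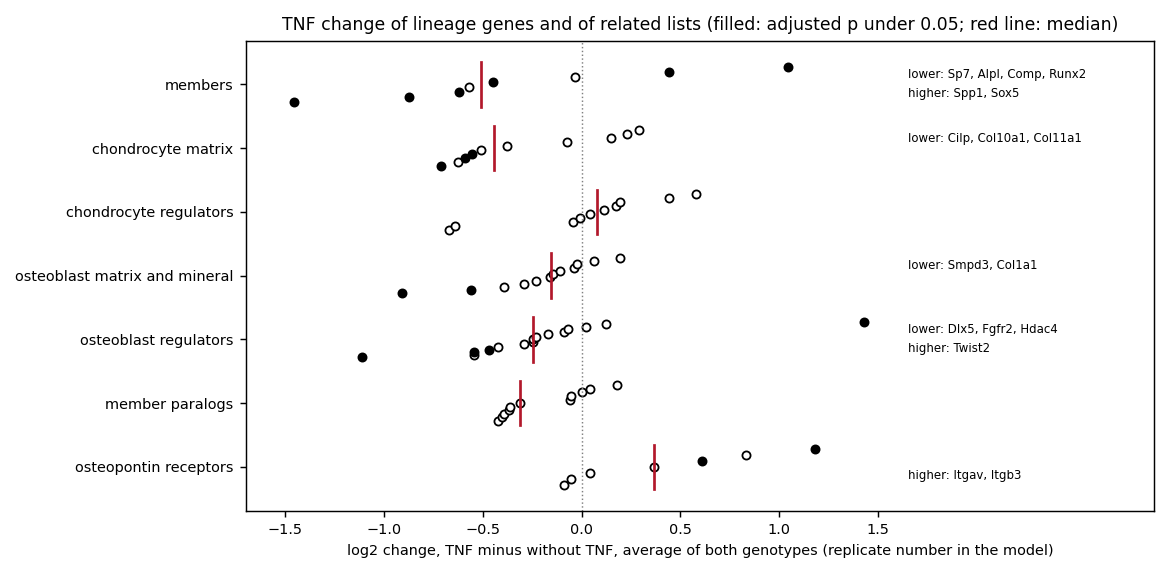
Log2 change with TNF, averaged over both genotypes with replicate number in the model, of the 8 members tested and of each tested gene of 6 related lists. Each circle is a gene, filled where the adjusted p is under 0.05 and then named at the right, and red lines are medians, at -0.51 for the members, -0.44 for cartilage matrix and 0.37 for osteopontin receptors.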

How the data were processed

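Poly(A) RNA of 12 libraries in 4 groups of 3 was sequenced as paired reads, per the labels' protocols. The sample titles give the group and replicate number. The authors deposited 1 normalized value per gene and library on a log2 scale, per the file headers. The submitters' processing notes name mm10 and DESeq, while the sources used here name no aligner, annotation or strand setting. Values at or under 1 normalized count are listed as 0. Linear values were expected when the design was written, so the deposited log2 values were raised to the power of 2, with 0 kept as 0. Only 60.7% to 70.6% of low values (under 8) were whole or mid-step multiples of the commonest low value (tolerance 0.01), so read counts were not recovered, the depth estimates are rough and no count model was run.

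Genes with at least 10 normalized counts in at least 3 libraries were kept (18139). R 4.3.3 with limma 3.58.1 fitted log2(normalized count + 1), with 1 mean per group and an intensity trend, and Benjamini-Hochberg adjustment over all genes kept at a threshold of 0.05. The pseudocount of 1 understates fold changes of low genes. An exact test was planned for members below the filter with a group above 3 normalized counts in every library, and neither Acan nor Ibsp had one. Exon lengths are unions of GENCODE M21 exons, in which 99.8% of gene IDs were found. Figures used Python 3.11.15 and matplotlib 3.10.9.

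The members, gene lists and tests were chosen with earlier results of these data known. Named genes were, by rule, all members, the 3 genes most like each member with a mean of at least 50, and up to 4 called genes of each list or its most abundant gene where none was called. Same-numbered libraries were taken as pairs in the TNF comparisons. The correlation of their deviations from the group means was 0.340, 0.148 and 0.501 for SoxC_KO_TNF with SoxC_KO and 0.103, 0.550 and 0.715 for control_TNF with control. For the knockout it was 0.0537, 0.189 and 0.526 with TNF and 0.457, 0.515 and 0.707 without. The libraries numbered 3 lay at the same end of the first principal component and contribute to these correlations. The correlation of differently numbered libraries was not computed, so these values do not show that a number marks a pair. Alternatives were another pseudocount, filter, scaling, trend or set of groups, the replicate block and libraries left out.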

Additional observations from a re-analysis of the deposited data

Results flagged for a closer look

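Sox6 was noticed because its libraries moved in opposite directions with TNF in the 2 genotypes, higher in 3 of 3 same-numbered knockout pairs and lower in 3 of 3 control pairs. The TNF response in knockout cells minus that in control cells was 1.51 on the log2 scale (SE 0.89, limma adjusted p = 0.884 without replicate number in the model, and SE 0.49, adjusted p = 0.284 with it), so the difference did not pass the test. In the model without replicate number and with 1 library left out at a time, the difference lay between 0.80, without SoxC_KO replicate 3, and 2.05, without control_TNF replicate 2. The same pattern of pairs was found for 1.94% of all genes tested, and the reverse pattern for 2.05%.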

How the results depend on the processing

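With the replicate block 941 genes passed for the average TNF effect, against 212 without (all 212 among them), and 6 members, against 1. In knockout cells it gave 505 genes and 4 members, against 53 and 0, in control cells 310 genes, against 58, and 1 gene for the average knockout effect. Leaving libraries out of the fit with the block was added after the data were seen. Without the libraries numbered 3, genes passing were 668 (5 members) for the average TNF effect, 193 in knockout cells, 274 (2 members) in control cells, and 1 each for the knockout with TNF, without TNF and on average. Without the libraries with liver transcripts they were 92 (0 members), 10 and 15, with 1 gene for the knockout with TNF and 1 for the genotype difference in TNF response, and with the block kept 545 (2 members), 148 (1 member) and 161. Without the 2 libraries high in Myh4 they were 84 (0 members), 1 and 13. With only the 2 groups compared in the fit they were 3 in knockout and 0 in control cells, and with no filter 35 in control cells.

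With each library left out in turn, 118 to 253 genes and 0 to 2 members passed for the average TNF effect, 14 to 55 genes in knockout cells and 5 to 84 in control cells. With the block these ranges were 512 to 993 genes and 2 to 7 members, 183 to 2236 genes and 1 to 5 members, and 120 to 471 genes and 0 to 1 members. Log2 changes that changed sign were Sox5 with TNF in control cells (-0.066 to 0.96), Runx2 with TNF in knockout cells (-0.83 to 0.15), Sox6 (-1.06 to 0.071) and Sp7 (-0.10 to 0.67) for the knockout without TNF, Sp7 for the knockout with TNF (-0.84 to 0.27), Sox6 for the average TNF effect (-0.39 to 0.17), and Sox5 (-0.36 to 0.44) and Sox6 (-0.095 to 0.47) for the average knockout effect. None of these was called without the block. Sox5 on average in knockouts, -0.06 in the model with all libraries and a pseudocount of 1, was 0.0132 with a pseudocount of 10, 0.13 without the libraries numbered 3 and 0.0119 without those with liver transcripts. Without the 2 high in Myh4 Sox6 was 0.093 for TNF (-0.03 with all libraries) and -0.068 for the knockout (0.11 with all libraries). The cause of these shifts was not tested. Of 417 log2 changes of members under the other settings 395 kept their direction and side of the threshold, 15 newly passed, 2 no longer did and 5 changed sign. The 2 that no longer passed were both Alpl for the average TNF effect. That was the only member call in the model without the block, so the other changes had no call to lose. Depth limits Acan and Ibsp most.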
